A study of Solanum lycopersicum with 18 samples.

Results

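The leaf transcriptome of the tomato line that the count table calls CS2 was followed through 1 h of heat stress (HS) at 45 °C. The response was read from 6 of the 18 libraries, the 3 HS 1 h libraries of CS2 set against the 3 HS 0 h libraries of the same line, and a gene was tested where at least 50 counts stood in at least 2 libraries, which 15312 of 35821 genes met. CS2 is labelled an hsfa1a knock-down line of cultivar Moneymaker, with a hairpin RNA directed at the heat stress factor HSFA1a. The study asked how this factor shapes the HS response of tomato leaves and also sequenced wild type (WT) plants and a further hsfa1a line, called CS3 in the table, at both times with 3 libraries each.

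The CS2 1 h plants were 4 weeks old and spent 1 h at 45 °C, and the CS2 0 h plants were of the same line and age and stayed at 24 °C. CS3 plants carried the hairpin too, WT plants did not, and both were treated in the same way. All plants grew under 16 h of light, RNA came from the fourth leaf, and each replicate pooled several plants. Such a hairpin is meant to lower a transcript and leaves the gene in place, and reads from the hairpin cannot be told from reads of HSFA1a itself. The study's sample names call its hairpin lines line1 and line2, and no source used here pairs these names with CS2 and CS3. Light-harvesting genes, which mark green leaf tissue, were abundant in all 6 libraries, CAB4 for example with 235 CPM (counts scaled to the library size, per 1000000) or more in each. Genes of trichome metabolism, from the surface hairs of the leaf, together held 112, 89.7 and 96.1 CPM at 1 h, against 170.5, 126 and 116 CPM at 0 h, and 2 of the 5 tested fell. That is 40%, against 26.2% of all tested genes. In such leaf RNA, fewer cells of a type and less RNA per cell cannot be told apart. Of 2 flower and fruit identity genes tested, 1 rose, the MADS-box gene TDR6, with 44.1, 49.5 and 53.9 CPM at 1 h, against 19.3, 22.4 and 20.6 CPM at 0 h.

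HSFs sit inactive in unstressed cells, held by chaperones, and are released when heat unfolds proteins. In tomato HSFA1a is regarded as the master regulator that starts the response, and HSFA2, which is made mainly under heat, then works beside it. Their targets are mostly heat shock proteins (HSPs), chaperones that keep proteins from clumping or refold them, together with enzymes that make protective sugars and remove peroxides.

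The 3 CS2 1 h libraries differed in depth. They held 1713285, 2221333 and 3669618 counts, against 3643803, 3628991 and 3415113 counts at 0 h, and these were also the lowest and the highest of all 18 libraries. Replicate 3 at 1 h stood apart in a second way: chloroplast genes took 0.419, 0.323 and 0.135% of the counts in the 1 h libraries of CS2, against 0.164, 0.184 and 0.152% at 0 h, so that only replicates 1 and 2 lay above the 0 h range. Duplicate reads had been removed before counting, so reads starting at the same position counted once and the count of a short, abundant gene is limited by its length. Where the largest count of a gene came to at least 0.3 times its length, introns included, it is called near the count limit here, which was so for 1069 genes. Reads come mostly from exons, so a gene with long introns can be limited without being called so. Over these genes the median change from the mean of the 0 h libraries, on the log2(CPM + 1) scale, was 0.17 in replicate 3 and 0.70 over replicates 1 and 2, whereas over the other genes it was 0.00 and −0.07. The part of depth in this was not tested, and no gene named below reversed its direction without replicate 3.

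HSFA1a (HSFA1A, Solyc08g005170.3, chromosome 8, 127049 to 132599 of the M82 assembly), the gene targeted by the hairpin, held 86.9, 122 and 110.3 CPM in CS2 1 h libraries, against 62.2, 67.3 and 72.8 CPM in CS2 0 h libraries. All 1 h libraries lay above all 0 h libraries, and the gene was higher after HS (edgeR's quasi-likelihood test with Benjamini-Hochberg adjustment, log2 fold change 0.66, SE 0.153, adjusted p = 0.00139). No lower level in the libraries labelled CS2 than in WT was found: the difference of CS2 from WT was −0.13 on the log2 scale at 0 h (SE 0.153, edgeR adjusted p = 1) and 0.60 at 1 h (SE 0.158, edgeR adjusted p = 0.00672). The study states that its hairpin construct lowers HSFA1a expression and points to a supplementary figure, which was not seen here. How far the hairpin's own reads enter these counts was not tested.

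After 1 h at 45 °C the libraries labelled CS2 had changed in 8408 of the 15312 genes, 54.9% of those tested (edgeR, adjusted p under 0.05). The 4397 genes that were higher made up 28.7% and the 4011 that were lower 26.2%, while 6904 were not called. No gene list below was tested as a set against these shares. Of the 1069 genes near the count limit, 633 were higher and 135 lower, so rises were commoner there than over all tested genes. In what follows "rose" and "fell" are used of genes past this threshold, lists give the number of tested genes that rose or fell, and a value with ± is a log2 fold change with its SE for a gene past the threshold. Each SE was worked back from the test, as the size of the log2 fold change over the square root of its F statistic. It is likely too small for genes with almost no counts at 1 of the times. Most changes were modest, with a median log2 fold change of 0.74 among the higher genes and −0.87 among the lower genes. Large changes were nearly all rises: 103 genes rose and 5 fell by at least 4 on the log2 scale, and 28 rose and 0 fell by at least 6. Of the genes changed by at least 1, 1407 rose and 1598 fell. The 3 libraries at 1 h lay above all 3 at 0 h in 4969 genes (32.5%) and below them in 5072 genes (33.1%).

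The balance of rises and falls depended on the scaling. With library size alone as the scale, 3154 genes were higher and 5383 lower, and the median of all genes moved to −0.18 on the log2 scale, against 0.00 with the normalization used here. Replicate 3 was most often the least changed 1 h library, the lowest of the 3 in 2261 of the 4397 higher genes and the highest of the 3 in 2324 of the 4011 lower genes. Without it 4152 genes were higher and 3783 lower.

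The strongest rise, of genes with a name and a mean of at least 20 CPM at 1 h, was that of HSFA2 (Solyc08g062960.4, chromosome 8, 53211703 to 53213726), the heat-made partner of HSFA1a. It held 462, 319 and 259 CPM in CS2 1 h libraries, against 3.64, 2.66 and 1.13 CPM in CS2 0 h libraries. Every 1 h library lay far above every 0 h library, with a log2 fold change of 7.08 (SE 0.313, edgeR adjusted p = 1.3e-11). The same gene changed by 7.25 in WT and by 7.06 in CS3, and the difference between the CS2 and WT responses was −0.18 (edgeR adjusted p = 0.864). HSFA2 was near the count limit, so its fold may be understated. HSTF24, a class B factor, held 87.5, 33.3 and 40.3 CPM in CS2 1 h libraries, against 23.4, 9.31 and 11.3 CPM in CS2 0 h libraries. It rose by 1.80 on the log2 scale (SE 0.336, edgeR adjusted p = 0.000217), the groups did not overlap, and replicate 1 was the highest of its group at both times. Both HSF genes of the list, HSFA1A and HSTF24, were thus called higher.

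All 6 tested HSP100, HSP90 and HSP70 genes rose, with a median log2 fold change of 2.23, against 0.00 over all genes tested. HSP100/CLPB, the disaggregase that pulls proteins out of clumps, held 803, 417 and 372 CPM at 1 h, against 122, 131 and 115 CPM at 0 h (edgeR, log2 fold change 2.11, SE 0.229, adjusted p = 6.38e-07). The HSP70 gene hsc70.3 held 1095, 723 and 519 CPM at 1 h, against 14.6, 6.39 and 3.10 CPM at 0 h and had the largest change of the list (edgeR, log2 fold change 6.57, SE 0.365, adjusted p = 1.97e-10). It was low before HS, at 14.6 CPM or less, and reached 519 CPM or more after it, with no overlap. Hsc70.1 held 1225, 871 and 599.7 CPM at 1 h, against 67.9, 42 and 10.4 CPM at 0 h (4.47 ± 0.451 on the log2 scale), and its 0 h libraries were themselves far apart. Hsc70.2, which was already abundant at 0 h, held 896, 673 and 485 CPM at 1 h, against 163, 125 and 111 CPM at 0 h (2.36 ± 0.249). In each of these genes replicate 1 was the highest and replicate 3 the lowest of the 1 h libraries. All 6 were near the count limit, where rises were commoner than over all tested genes. The HSP70 genes are close copies of each other, so that reads fitting several of them may have been dropped for low mapping quality.

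Small HSPs bind unfolding proteins before the larger chaperones act. Both tested genes rose. MTSHP, the small HSP of mitochondria, held 571, 432 and 266 CPM at 1 h, against 8.33, 8.51 and 3.10 CPM at 0 h (edgeR, log2 fold change 5.96, SE 0.385, adjusted p = 9.19e-10). HSP17-6, a cytosolic small HSP, held 142, 36.3 and 34 CPM at 1 h, against 11.7, 7.98 and 8.75 CPM at 0 h and rose by 2.80 (SE 0.45, edgeR adjusted p = 5.24e-05). Its replicate 1 at 1 h was far above the other two, yet all 1 h libraries were above all 0 h libraries. Both genes were near the count limit.

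Of the 14 FK506-binding proteins tested, a family of peptidyl-prolyl isomerases some of which work with HSP90, 6 rose, 0 fell and 8 were not called. FKBP65, which in Arabidopsis is a heat-made partner of HSP90, held 298, 123 and 115 CPM at 1 h, against 4.16, 2.93 and 1.13 CPM at 0 h (edgeR, log2 fold change 5.96, SE 0.474, adjusted p = 1.3e-08). FKBP62a held 695, 536 and 429 CPM at 1 h, against 126, 138 and 135 CPM at 0 h (2.05 ± 0.185 on the log2 scale) and FKBP42 held 108, 72.1 and 76.8 CPM at 1 h, against 34.4, 31.1 and 31.9 CPM at 0 h (1.38 ± 0.172). None of the 3 overlapped between the times, and FKBP62a was near the count limit. ER24, a coactivator of the MBF1 type, which in Arabidopsis is required for thermotolerance, held 374, 261 and 164 CPM at 1 h, against 14.6, 14.1 and 16.1 CPM at 0 h (edgeR, log2 fold change 4.14, SE 0.261, adjusted p = 6.76e-10), and of the 3 MBF1 genes tested 2 were called higher. ER24 was near the count limit. GolS2, a galactinol synthase that starts the synthesis of raffinose sugars, held 40.8, 16.7 and 20.7 CPM at 1 h, against 4.68, 1.06 and 2.82 CPM at 0 h and rose by 3.12 ± 0.435. In the plot of the heat genes by library, replicate 1 was the highest 1 h library in every gene but HSFA1A.

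**Figure D1:**
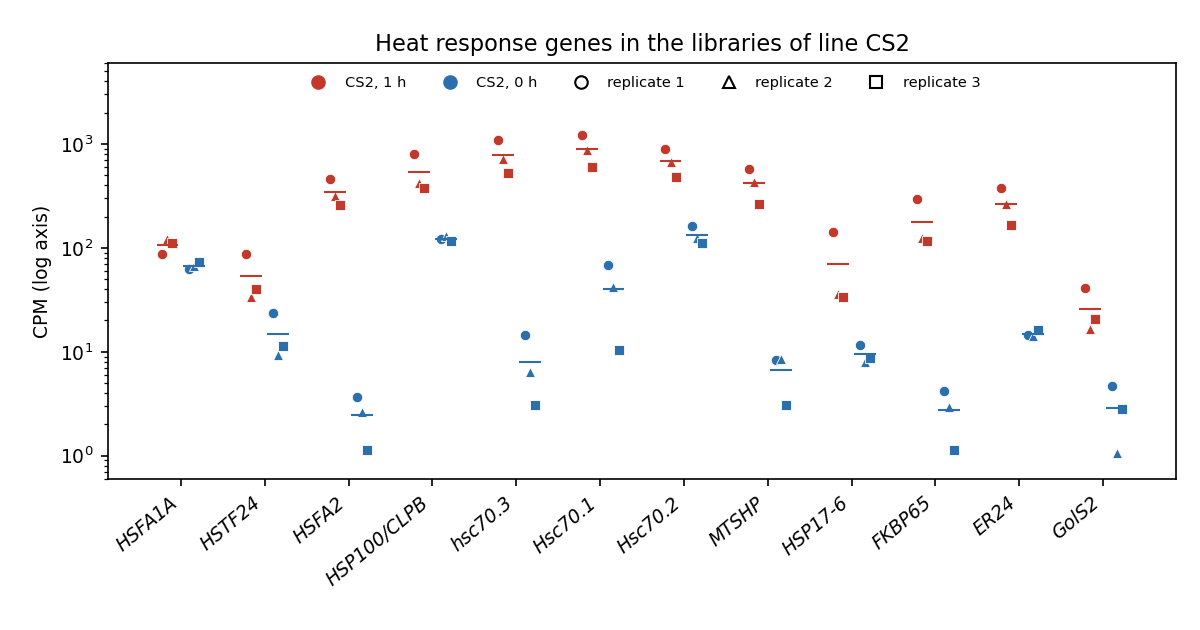
Heat genes by library of CS2: the vertical axis is CPM on a log scale, each point is a library (circle, triangle and square for replicates 1, 2 and 3), red marks 1 h and blue 0 h, and horizontal lines are means of 3 libraries. All 1 h points lie above all 0 h points of the same gene, for HSFA2 with 259 to 462 CPM at 1 h, against 1.13 to 3.64 CPM at 0 h.

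Of 11 ethylene response factors (ERFs) tested, which bind the promoters of stress genes, 7 rose, 1 fell and 3 were not called, with a median of 0.75. Without 1 h replicate 3, 7 rose and 0 fell. ERF-D3 held 88.2, 52.4 and 53.9 CPM at 1 h, against 1.56, 0.266 and 0.282 CPM at 0 h (6.40 ± 0.451 on the log2 scale). ERF-J1 held 21.4, 5.88 and 6.81 CPM at 1 h and 0 counts in all 3 libraries at 0 h, which makes it at least 35.8-fold higher at 1 h against a floor of 3 counts over the group of 0 h libraries. DREB2, a factor of the drought and heat response, held 39.4, 51 and 53.9 CPM at 1 h, against 12.8, 14.6 and 13.8 CPM at 0 h (1.82 ± 0.189). The single ERF gene that fell, DDTFR10A, held 24.1, 16.7 and 15.3 CPM at 1 h, against 25, 31.1 and 39.5 CPM at 0 h, with replicate 1 at 0 h barely above the highest 1 h library (log2 fold change −0.81, SE 0.276, adjusted p = 0.0182 by edgeR). This call was lost without CS2 0 h replicate 3 (edgeR adjusted p = 0.0836), 1 h replicate 2 (0.0612) or 1 h replicate 3 (0.0957).

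Of 5 WRKY factors, regulators of stress and defence genes, 3 rose and 0 fell. WRKY31 held 305, 258 and 223 CPM at 1 h, against 49.5, 35.9 and 48.3 CPM at 0 h (2.55 ± 0.225) and WRKY40 held 149.7, 129 and 115 CPM at 1 h, against 45.3, 50.3 and 65.2 CPM at 0 h (1.28 ± 0.154), without overlap. Among the 8 genes of ethylene synthesis and perception, 2 rose (25%, against 28.7% of all tested genes) and 1 fell (12.5%, against 26.2%). The receptor ETR5 held 176, 202 and 210.4 CPM at 1 h, against 68.4, 50.6 and 46.6 CPM at 0 h (1.83 ± 0.155), whereas the receptor ETR1 fell to 37.4, 39.2 and 38.6 CPM at 1 h, against 65.3, 59.6 and 50.8 CPM at 0 h (−0.61 ± 0.122). A further receptor, ETR2, was not called (−0.28, SE 0.148, edgeR adjusted p = 0.111), and without 1 h replicate 3 the list had 2 genes that rose and 2 that fell. Of 9 jasmonate genes 3 rose and 1 fell (2 and 1 without 1 h replicate 3). The shares were 33.3% and 11.1%, against 28.7% and 26.2% of all tested genes. JAZ2, a repressor of jasmonate signalling, held 72.2, 46.6 and 51.6 CPM at 1 h, against 20, 8.78 and 12.1 CPM at 0 h (2.04 ± 0.271), and OPR3, an enzyme of jasmonate synthesis, held 74.9, 34.3 and 53 CPM at 1 h, against 125, 87.5 and 96.5 CPM at 0 h (−0.95 ± 0.241).

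Aux/IAA repressors, which block auxin-responsive transcription, rose in 5 of 9 tested and fell in 1, and without 1 h replicate 3 rose in 4 and fell in 0. IAA15 held 112, 62.7 and 59.5 CPM at 1 h, against 10.2, 6.65 and 6.77 CPM at 0 h (3.28 ± 0.28) and IAA2 held 76.9, 74.5 and 68.3 CPM at 1 h, against 12.2, 11.7 and 19.8 CPM at 0 h (2.33 ± 0.235), and neither overlapped between the times. Auxin carriers fell in 5 of 7 tested and rose in 1, with a median of −0.84, and without 1 h replicate 3 fell in 4 and rose in 1. The efflux carrier PIN3 fell to 34.8, 27.9 and 30.9 CPM at 1 h, against 69.7, 68.6 and 75.3 CPM at 0 h (−1.20 ± 0.245), and the influx carrier LAX4 changed by −1.11 ± 0.251. The carrier that rose was PIN9, with 18.7, 28.9 and 23 CPM at 1 h, against 12.5, 6.39 and 9.31 CPM at 0 h (1.33 ± 0.328). GH3-8, of the family that conjugates auxin to amino acids, was the GH3 gene that fell, with 12, 11.3 and 14.2 CPM at 1 h, against 61.7, 78 and 79.9 CPM at 0 h (−2.52 ± 0.242), and 1 of the other 3 tested GH3 genes rose. The GH3 shares of 25% each were close to those over all tested genes, 28.7% higher and 26.2% lower.

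Antioxidant enzymes rose in 11 of 15 tested and fell in 1, with a median of 0.39, so that most of the changes were small. The ascorbate peroxidases, which remove hydrogen peroxide, led them. APX1 held 319, 274 and 241 CPM at 1 h, against 84.1, 85.7 and 82.1 CPM at 0 h (1.72 ± 0.121) and APX2 held 141, 121 and 114 CPM at 1 h, against 38, 46.3 and 46 CPM at 0 h (1.52 ± 0.12). The glutathione peroxidase GPXle-1 changed by 1.49 ± 0.134 and the catalase CAT2, near the count limit, by 0.90 ± 0.152. Without 1 h replicate 3, 10 of the 15 were called higher. Of 10 genes of ubiquitin and the proteasome, which tag and degrade damaged proteins, 7 rose and 0 fell. UBC3, a ubiquitin-conjugating enzyme, held 126, 139 and 146 CPM at 1 h, against 38.8, 37.5 and 38.9 CPM at 0 h (1.84 ± 0.109) and the polyubiquitin gene ubq1-1 held 297, 237 and 218 CPM at 1 h, against 128, 126 and 147 CPM at 0 h (0.90 ± 0.149). Calcium signalling genes rose in 3 of 6 tested and fell in 1 (2 and 1 without 1 h replicate 3): the calcium sensor CBL2 changed by 1.08 ± 0.2 and the calcium-dependent protein kinase CDPK1 by −0.59 ± 0.0962. Of 11 MAP kinase cascade genes 1 rose, MAPKKKalpha (0.91 ± 0.145), and 4 fell (1 and 3 without 1 h replicate 3), among them MAPK8 (−0.80 ± 0.227). With all libraries these shares were 9.09% and 36.4%, against 28.7% and 26.2% of all tested genes. Expansins and xyloglucan endotransglucosylases, which loosen cell walls, were divided between 3 that rose, 3 that fell and 4 that were not called, and without 1 h replicate 3 rose in 4 and fell in 3. The shares of 30% each were close to those over all tested genes, 28.7% higher and 26.2% lower. EXLA1 held 120.3, 108 and 97.8 CPM at 1 h, against 13.5, 9.05 and 15 CPM at 0 h (3.11 ± 0.175), while exp18 fell to 16, 14.7 and 11.3 CPM at 1 h, against 63.2, 48.2 and 46.6 CPM at 0 h (−1.95 ± 0.251).

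**Figure D2:**
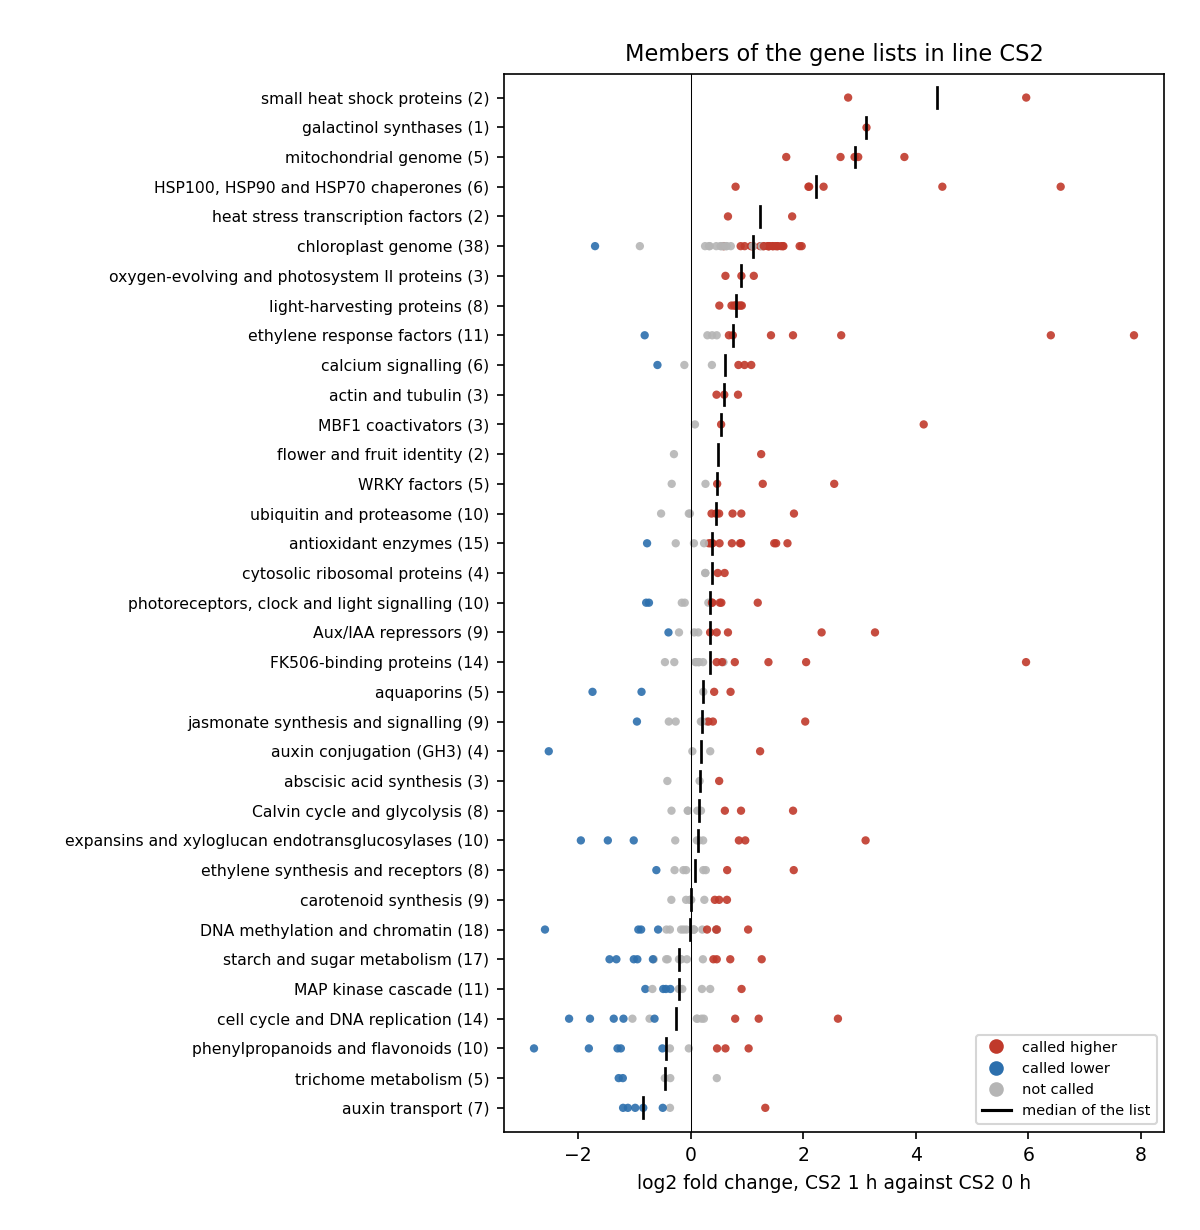
Gene lists in CS2: each row is a list, each point a tested gene at its log2 fold change of CS2 1 h over CS2 0 h on the horizontal axis, coloured by whether it was called higher, called lower or not called, and the vertical tick is the list's median (the number of tested genes is in brackets). Lists of chaperones and of mitochondrial genes lie to the right, with medians of 2.23 and 2.91, and auxin carriers lie left of 0, with a median of −0.84.

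Photosynthesis genes of the nucleus were higher after HS, but by an amount that differed between the 1 h libraries. All 8 light-harvesting genes, which make the antenna proteins around the photosystems, were called higher, with a median of 0.81, and all 8 were near the count limit. Of all 1069 genes near that limit, 633 were called higher and 135 lower. CAB-8 held 731, 655 and 432 CPM at 1 h, against 307, 322 and 336 CPM at 0 h (log2 fold change 0.91, SE 0.159, adjusted p = 0.000116 by edgeR). CAB4 held 586, 445 and 272 CPM at 1 h, against 235, 242 and 257 CPM at 0 h (0.82 ± 0.193). Replicate 3 was the lowest 1 h library in both genes and, in CAB4, lay just above the highest 0 h library. The median change of the list was 0.23 in replicate 3 and 1.04 over replicates 1 and 2, on the log2(CPM + 1) scale. All 3 tested proteins of photosystem II and its oxygen-evolving complex were called higher too, and all 3 were near the count limit. PSBR held 494, 428 and 299 CPM at 1 h, against 169.7, 197 and 192 CPM at 0 h (1.12 ± 0.146). OEE1 changed by 0.62 ± 0.183, but its replicate 3 lay within the 0 h range, and its call was lost without 1 h replicate 1 (edgeR adjusted p = 0.117).

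Genes of the organelles behaved in a contrasting way. All 5 tested mitochondrial genes were higher at 1 h, with a median log2 fold change of 2.91, and replicate 3 took part, with a median change of 2.48 in that library. The ATP synthase subunit gene atp1 held 103, 87.7 and 66.6 CPM at 1 h, against 13, 9.58 and 11 CPM at 0 h (edgeR, log2 fold change 2.91, SE 0.427, adjusted p = 1.94e-05). The gene nad4, for a subunit of complex I, held 94.2, 100.5 and 104 CPM at 1 h, against 9.63, 17.6 and 10.7 CPM at 0 h (2.98 ± 0.416), and ccmFc, of cytochrome c maturation, held 23.4, 22.6 and 19.6 CPM at 1 h, against 2.08, 2.13 and 0.282 CPM at 0 h (3.80 ± 0.43). The groups did not overlap in any of the 3. Mitochondrial genes took 0.0894, 0.0772 and 0.0591% of all counts in the 1 h libraries, against 0.02, 0.0192 and 0.0167% at 0 h.

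Of the 38 tested chloroplast genes, 23 were called higher and 1 lower, with a median of 1.11. The median change was −0.22 in replicate 3 and 1.44 over replicates 1 and 2, and only 8 genes had all 1 h libraries above all 0 h libraries. The photosystem II gene psbD held 199.8, 135 and 38.3 CPM at 1 h, against 35.9, 34.9 and 23.1 CPM at 0 h (1.94 ± 0.463), and in replicate 3 it was close to the 0 h level. For ccsA, of cytochrome c synthesis, with 58.1, 35.3 and 9.07 CPM at 1 h, against 6.77, 9.84 and 7.90 CPM at 0 h, the call was lost without 1 h replicate 1 (edgeR adjusted p = 0.0846). Without replicate 3, 29 chloroplast genes were higher and 1 lower. The gene that fell was ycf1, of protein import into the chloroplast, with 13.4, 14.7 and 10.2 CPM at 1 h, against 30.7, 50 and 40.6 CPM at 0 h (−1.70 ± 0.494), and here replicate 3 moved with the others. The part of depth, of the count limit and of the RNA in this library was not tested.

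**Figure D3:**
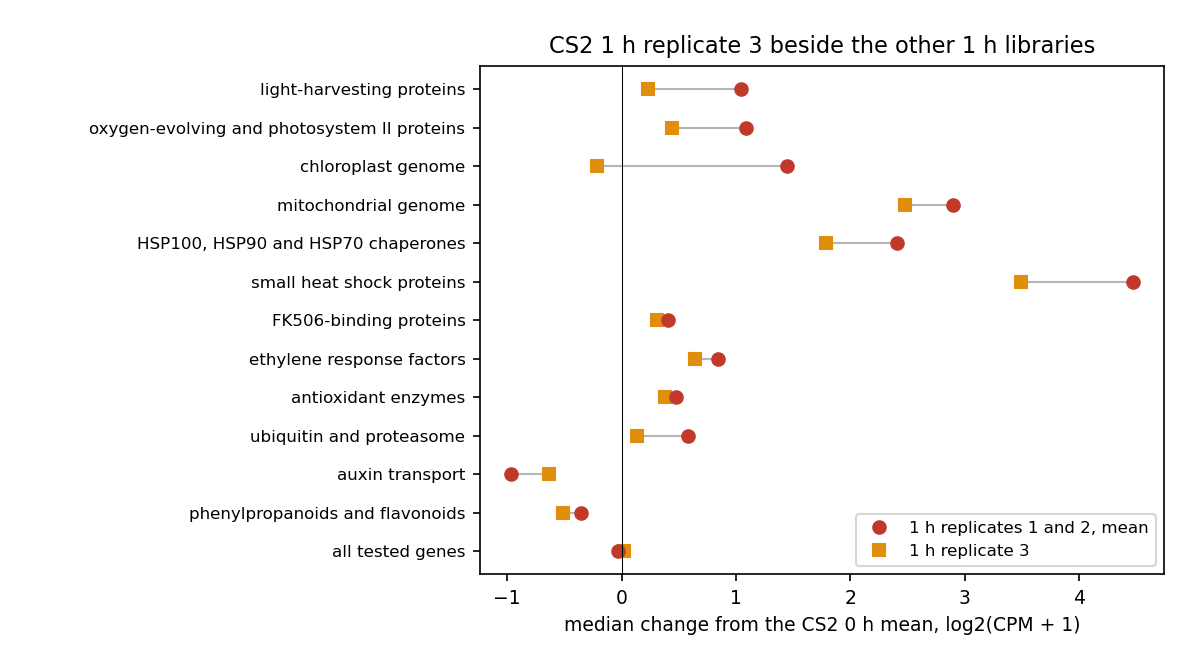
Replicate 3 of CS2 1 h beside the other 1 h libraries: the horizontal axis is the median change of a list from the mean of the CS2 0 h libraries on the log2(CPM + 1) scale, squares are replicate 3, circles are replicates 1 and 2 together, and the lowest row holds all tested genes. Chloroplast genes lie at −0.22 in replicate 3 and at 1.44 over replicates 1 and 2, while mitochondrial genes lie at 2.48 in replicate 3.

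The gene that fell most, of those with a name and a mean of at least 20 CPM at 0 h, was p69c (Solyc08g079880.2), a subtilisin-like protease of the apoplast. It fell to 6.68, 4.90 and 7.37 CPM at 1 h, against 65.1, 56.9 and 61.5 CPM at 0 h (edgeR, log2 fold change −3.24, SE 0.199, adjusted p = 4.83e-10). A further protease of this family, SBT2, fell to 22.7, 31.4 and 37.1 CPM at 1 h, against 159, 167 and 175 CPM at 0 h (−2.41 ± 0.169). The cytochrome P450 gene CYP77A19 held 13.4, 10.8 and 13.6 CPM at 1 h, against 76.5, 86.7 and 106 CPM at 0 h (−2.82 ± 0.262). In these 3 genes the libraries of each time lay close together and far from those of the other time. PHO1-3, of a family of phosphate exporters, changed by −2.38 ± 0.455. The steroid reductase gene det2, of brassinosteroid synthesis, held 18, 8.82 and 9.64 CPM at 1 h, against 79.4, 47.4 and 31.3 CPM at 0 h (−2.19 ± 0.363), with wide spread at 0 h.

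Cell cycle and DNA replication genes fell in 5 of 14 tested and rose in 3. The shares were 35.7% and 21.4%, against 26.2% and 28.7% of all tested genes. CDKB2, a kinase of dividing cells, held 11.4, 6.37 and 13.3 CPM at 1 h, against 34.4, 27.4 and 20.3 CPM at 0 h (−1.36 ± 0.369). The mitotic cyclin CycB2 was low throughout, with 2.01, 0.9803 and 1.99 CPM at 1 h, against 11.2, 6.65 and 5.08 CPM at 0 h (−2.16 ± 0.663). The member with the largest rise was krp1, an inhibitor of cyclin-dependent kinases, which held 285, 264 and 244 CPM at 1 h, against 45.8, 41.8 and 41.2 CPM at 0 h (edgeR, log2 fold change 2.62, SE 0.177, adjusted p = 1.78e-09). None of these 3 genes overlapped between the times.

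Of 18 genes of DNA methylation and chromatin, 4 rose, 4 fell and 10 were not called, with a median of −0.01 (3 and 4 without 1 h replicate 3). The shares of 22.2% each were close to those over all tested genes, 28.7% higher and 26.2% lower. DML4, a DNA demethylase of the DEMETER type, held 5.35, 7.35 and 5.39 CPM at 1 h, against 39.6, 37.3 and 31.6 CPM at 0 h (−2.59 ± 0.32), and the methyltransferase gene DNMT2 held 59.5, 52.4 and 55.9 CPM at 1 h, against 28.1, 26.3 and 27.9 CPM at 0 h (1.02 ± 0.134). DCL2b, a Dicer-like enzyme that cuts double-stranded RNA into small RNAs, was nearly absent before HS, with 28.7, 28.9 and 34.9 CPM at 1 h, against 0.521, 0.532 and 0 CPM at 0 h (6.27 ± 0.439). It changed by 7.60 in WT and 8.06 in CS3, and the difference from WT was not called (edgeR adjusted p = 0.432).

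Phenylpropanoid and flavonoid genes fell in 5 of 10 tested and rose in 3, and without 1 h replicate 3 fell in 4 and rose in 3. With all libraries the shares were 50% and 30%, against 26.2% and 28.7% of all tested genes. Chalcone synthase CHS2, the entry enzyme of flavonoid synthesis, held 40.1, 33.8 and 32.3 CPM at 1 h, against 90.6, 78.2 and 78.7 CPM at 0 h (−1.24 ± 0.218). The hydroxylase F3'H held 4.01, 7.35 and 9.36 CPM at 1 h, against 17.7, 18.4 and 18.1 CPM at 0 h (−1.30 ± 0.264), and F3'5'H held 2.01, 1.96 and 2.55 CPM at 1 h, against 20, 18.1 and 8.75 CPM at 0 h (−2.78 ± 0.484). All 3 fell in every 1 h library. In starch and sugar metabolism 4 of 17 rose and 5 fell (3 and 5 without 1 h replicate 3). These shares, 23.5% and 29.4%, were close to those over all tested genes, 28.7% and 26.2%. The cell wall invertase LIN8 held 48.8, 43.1 and 41.7 CPM at 1 h, against 85.9, 127 and 147 CPM at 0 h (−1.44 ± 0.251), and the beta-amylase BAM1, near the count limit, changed by 1.26 ± 0.172. PPCK1, the kinase of phosphoenolpyruvate carboxylase, changed by 1.82 ± 0.257, and 3 of the 8 genes of its list, the Calvin cycle and glycolysis, rose and 0 fell. Photoreceptor, clock and light signalling genes rose in 5 of 10 tested and fell in 2. GLK2, a regulator of chloroplast development, held 74.9, 131 and 134 CPM at 1 h, against 41.1, 54.8 and 54.7 CPM at 0 h (1.19 ± 0.192), whereas the photoreceptor genes PHYE (−0.79 ± 0.122) and PHOT1 (−0.74 ± 0.147) fell.

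Carotenoid synthesis genes rose in 3 of 9 tested and fell in 0, abscisic acid synthesis genes rose in 1 of 3, aquaporins rose in 2 and fell in 2 of 5 (3 and 2 without 1 h replicate 3), and cytosolic ribosomal protein genes rose in 2 of 4. Over all tested genes 28.7% rose and 26.2% fell, and none of these short lists was tested against those shares. All 3 actin and tubulin genes of the list rose. Beta-actin (Solyc03g078400.3), often taken as a reference gene, rose too, with 531, 474 and 354 CPM at 1 h, against 291, 301 and 331 CPM at 0 h (log2 fold change 0.55, SE 0.138, adjusted p = 0.0025 by edgeR), and was near the count limit.

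Of 2 loci without a symbol here, Solyc09g074475 was followed in the study and Solyc03g026270 is named in its primer list. Solyc03g026270.3 (chromosome 3, 3679642 to 3680259) held 40.8, 25.5 and 26.9 CPM at 1 h and 0 counts in every 0 h library, at least 109.5-fold higher against the same floor. Solyc09g074475.1 (chromosome 9, 62649309 to 62650158) held 12.7, 9.80 and 8.79 CPM at 1 h, against 1.04, 0 and 0 CPM at 0 h (edgeR, log2 fold change 4.66, SE 0.659, adjusted p = 1.34e-05). In all, 11 tested genes had 0 counts in every 0 h library of CS2 and all 11 were called higher, while 0 genes had 0 counts in every 1 h library. A gene with 0 counts in these 0 h libraries was tested only if at least 2 other libraries held at least 50 counts. The filter thus favoured genes high at 1 h, and these numbers are no separate sign of a rise. The largest rise of all belonged to TomatoPan028850, with 299, 287 and 219 CPM at 1 h, against 0.521, 0 and 0 CPM at 0 h (10.21 ± 0.384). With almost no reads at 0 h, this SE is likely too small as a measure of precision, and the gene was near the count limit. Among the largest falls were those of Solyc01g067440.4, with 0.668, 0 and 0.567 CPM at 1 h, against 21.1, 17.83 and 25.4 CPM at 0 h (−5.52 ± 0.54), and Solyc02g070180.3, with 2.01, 1.96 and 1.42 CPM at 1 h, against 23.2, 30.9 and 40.4 CPM at 0 h (−4.16 ± 0.416).

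The response of CS2 was then set beside those of WT and CS3, each from its own 0 h libraries. HS called 7563 genes in WT, 49.4% of those tested, 3701 of them higher (24.2%) and 3862 lower (25.2%). In CS3 it called 8151 genes, 53.2%, with 4086 higher (26.7%) and 4065 lower (26.5%). Of the genes higher in CS2, 54.5% were also higher in WT, which is 64.8% of those higher in WT. Of the genes lower in CS2, 58.6% were lower in WT, which is 60.9% of those lower in WT. For CS3 the shares were 78.4% of the genes higher in CS2 and 84.3% of those higher in CS3, and 78.5% of the genes lower in CS2 and 77.4% of those lower in CS3. A further 138 genes were higher in CS2 and lower in WT and 144 the other way round, against 2 and 4 such genes between CS2 and CS3. Across the 15312 genes, which are not independent replicates, the log2 fold changes of CS2 correlated with those of WT at 0.728 and with those of CS3 at 0.926.

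The size of the CS2 response over the genes called in WT was measured in each 1 h library as the slope of its changes on the WT log2 fold changes. The slopes were 0.699, 0.584 and 0.547 in the CS2 libraries and 0.671, 0.724 and 0.724 in the CS3 libraries, so that the lines overlapped. Over the genes called in both WT and CS3 they did not, with 0.78, 0.674 and 0.628 in the CS2 libraries and 0.783, 0.82 and 0.824 in the CS3 libraries. That set was chosen by CS3 values too, which favours CS3 over CS2, so no difference between the lines is read from it. The median log2 fold change of the genes higher in WT was 0.62 in CS2 and 0.80 in WT, and that of the genes lower in WT was −0.66 in CS2 and −0.96 in WT. These genes were chosen by their WT values, which favours WT in this pair.

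The difference between the CS2 and WT responses was tested for each gene as an interaction. It was called in 3026 genes, 19.8% of those tested (edgeR, adjusted p under 0.05), with the CS2 response higher in 1594 (10.4%) and lower in 1432 (9.35%). The 1594 genes were of several kinds: 921 of them rose in CS2, 204 fell and 469 were not called, and in WT 207 rose, 802 fell and 585 were not called. Of the 1432, 177 rose, 768 fell and 487 were not called in CS2, and in WT 793 rose, 102 fell and 537 were not called. A total of 158 of the 1594 genes and 54 of the 1432 were near the count limit.

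Among the heat genes, several rose less in CS2 than in WT. HSTF24 changed by 1.80 in CS2 and 3.89 in WT, where it held 251, 277 and 215 CPM at 1 h and 19, 15.5 and 15.5 CPM at 0 h. The difference was −2.09 (SE 0.466, edgeR adjusted p = 0.00432). HSP100/CLPB differed by −1.17 (edgeR adjusted p = 0.0132) and FKBP42 by −0.91 (edgeR adjusted p = 0.0117). The HSF list had medians of 1.23 in CS2, 1.91 in WT and 2.16 in CS3. For the HSP100, HSP90 and HSP70 list they were 2.23, 2.76 and 2.80, and for FK506-binding proteins 0.34, 0.35 and 0.18. In these lists 0 genes were called different between CS2 and CS3. The CS3 response was not tested against WT, so a weaker rise is not read as shared by the hairpin lines. The chloroplast protease gene ftsH6 held 271, 123 and 128 CPM at 1 h, against 10.2, 26.9 and 25.7 CPM at 0 h in CS2, and 770, 809 and 671 CPM at 1 h, against 31.4, 17.43 and 25.8 CPM at 0 h in WT, a difference of −1.89 (edgeR adjusted p = 0.0076). ERABP1 held 56.1, 36.8 and 40.3 CPM at 1 h, against 19.3, 17.6 and 17.5 CPM at 0 h in CS2, and 231, 217 and 189 CPM at 1 h, against 25.5, 20.5 and 19.5 CPM at 0 h in WT (−2.01, edgeR adjusted p = 4.34e-05). ftsH6 was near the count limit. In HSTF24, ftsH6 and ERABP1 every CS2 1 h library thus lay below every WT 1 h library. The antiporter gene nhx4 (−1.65) and ORRM4, of organelle RNA editing (−1.62), were also among the 6 lowest responses relative to WT of genes with a name whose CS2 times did not overlap and whose mean reached 20 CPM at either time. The same was true of det2, which fell in CS2 and held 34.7, 43.7 and 48.7 CPM at 1 h, against 44.1, 44.3 and 26.1 CPM at 0 h in WT (−2.34, edgeR adjusted p = 0.00265), and was near the count limit. Like det2, nhx4 was lower at 1 h in CS2, with log2 fold changes of −1.13 to −0.88 when single libraries were left out. ORRM4 was higher at 1 h in CS2, with 1.27 to 1.56.

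Other genes rose more in CS2. The mitochondrial small HSP gene MTSHP differed by 1.53 (edgeR adjusted p = 0.0439) and hsc70.3 by 1.42 (edgeR adjusted p = 0.0392), and both genes were near the count limit. The call of MTSHP was lost without any of 11 of the 12 CS2 and WT libraries (edgeR adjusted p 0.0526 to 0.121) and kept only without CS2 1 h replicate 3. That of hsc70.3 was lost without any of 9 of the 12 (0.0501 to 0.109) and kept without CS2 0 h replicate 1, CS2 1 h replicate 3 or WT 0 h replicate 2. HSFA1A itself differed by 0.73 (edgeR adjusted p = 0.0247), a call that was lost without CS2 0 h replicate 1 (0.0604), CS2 1 h replicate 2 (0.0764), WT 0 h replicate 1 (0.0612) or WT 1 h replicate 3 (0.0743). DDTFR8 held 557, 454 and 344 CPM at 1 h, against 10.9, 17.3 and 10.2 CPM at 0 h in CS2, and 355, 372 and 296 CPM at 1 h, against 31.4, 32.7 and 39.8 CPM at 0 h in WT (1.82, edgeR adjusted p = 0.00147), and was near the count limit. IAA2 held 21.7, 14.7 and 14.5 CPM at 1 h, against 14.3, 9.13 and 14.7 CPM at 0 h in WT, with overlap, so that its rise in CS2 was larger by 1.90 (SE 0.36, edgeR adjusted p = 0.00128). The auxin synthesis gene FZY6 held 22.7, 28.4 and 32.9 CPM at 1 h, against 4.42, 8.78 and 9.88 CPM at 0 h in CS2, and 5.18, 10.2 and 8.78 CPM at 1 h, against 11.5, 12.7 and 9.21 CPM at 0 h in WT (2.35, edgeR adjusted p = 0.00223). The CS2 libraries of FZY6 did not overlap between the times, while those of WT did.

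Further genes with a higher response in CS2 were the ERF gene ERF-B13 (1.91, edgeR adjusted p = 0.0427), the transporter gene ABCC3 (1.78) and the TCP factor gene TCP20 (1.72). The call of ERF-B13 was lost without any of 10 of the 12 libraries (edgeR adjusted p 0.055 to 0.159) and kept without WT 0 h replicate 2 or WT 1 h replicate 2. The cyclin-dependent kinase inhibitor krp1 (1.63, edgeR adjusted p = 0.000274) and APX1 (1.03, edgeR adjusted p = 0.000461) rose more as well. Among genes without a name, Solyc01g098530.3 rose in CS2 and was not called higher in WT. It held 55.5, 56.4 and 48.2 CPM at 1 h, against 3.12, 1.60 and 1.41 CPM at 0 h in CS2, and 0.518, 2.03 and 0 CPM at 1 h, against 2.49, 1.66 and 0.737 CPM at 0 h in WT (5.66, SE 0.933, edgeR adjusted p = 0.000447). In CS3 it changed by 5.61. The molybdenum cofactor enzyme gene FLACCA, of abscisic acid synthesis, was not called in CS2 (−0.41, edgeR adjusted p = 0.366) and changed by 2.51 in WT, a difference of −2.92 (edgeR adjusted p = 0.000617).

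**Figure D4:**
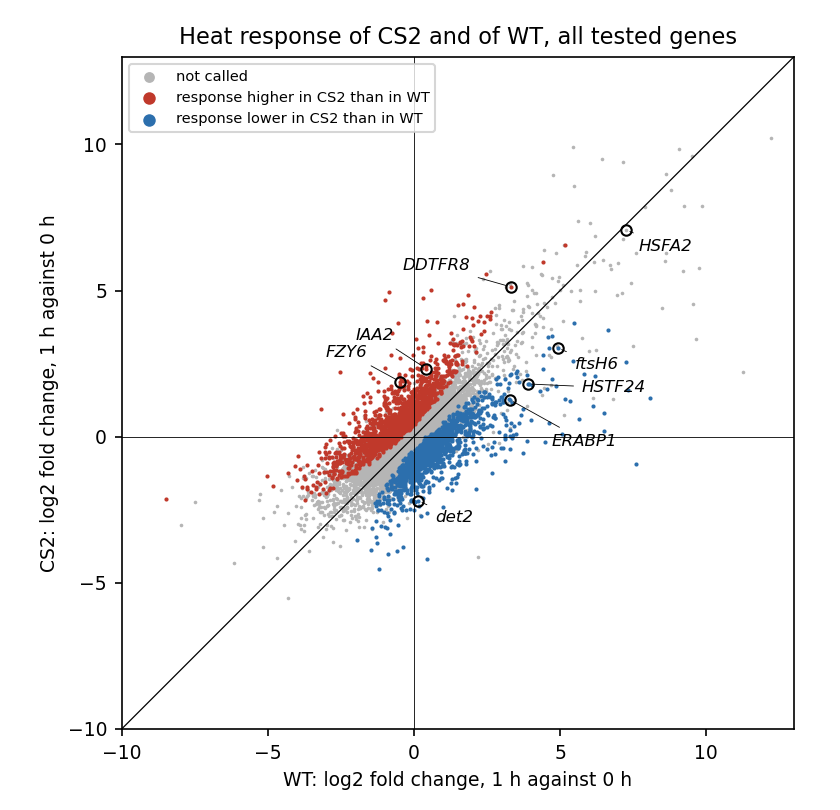
Response of CS2 against WT: each point is a gene at its log2 fold change of 1 h over 0 h in WT (horizontal axis) and in CS2 (vertical axis), red and blue mark genes whose response was called higher and lower in CS2, and the diagonal marks equal responses. HSTF24 lies below the line, at 1.80 in CS2 and 3.89 in WT, and IAA2 above it, at 2.33 in CS2 and 0.42 in WT.

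Between the hairpin lines few differences were called. The CS2 response differed from that of CS3 in 16 genes, 0.104% of those tested (edgeR, adjusted p under 0.05), 2 higher (0.0131%) and 14 lower (0.0914%) in CS2. The 2 genes were Solyc03g083420.4 (chromosome 3, 49333486 to 49340500) and Solyc04g014370.4 (chromosome 4, 4730454 to 4736600), named here after their values were seen. Solyc03g083420.4 held 193, 222 and 219.7 CPM at 1 h, against 64.8, 43.9 and 42.6 CPM at 0 h in CS2, and 41.8, 35.8 and 35.1 CPM at 1 h, against 45.4, 31.3 and 56.9 CPM at 0 h in CS3 (2.32, SE 0.333, edgeR adjusted p = 0.0077). Its libraries were separated by time in CS2 and overlapped in CS3. Solyc04g014370.4 held 129, 149 and 146 CPM at 1 h, against 40.1, 40.2 and 39.2 CPM at 0 h in CS2, and 63, 57.6 and 53.8 CPM at 1 h, against 33.5, 30.9 and 34.2 CPM at 0 h in CS3 (1.01, edgeR adjusted p = 0.00814). Of the 14 with a lower response in CS2, DDTFR10A was the one with a name. It held 69.9, 70.29 and 112 CPM at 1 h, against 39.3, 40.4 and 37.3 CPM at 0 h in CS3, where it rose, and the difference was −1.93 (SE 0.366, edgeR adjusted p = 0.0448). This call was lost without any of 9 of the 12 CS2 and CS3 libraries (0.0546 to 0.2) and kept without replicate 1 of CS2 at either time or CS3 1 h replicate 1. The count of 16 was unstable, and lay between 7 and 38 when a single library was left out, with 7 without CS2 1 h replicate 3, 8 without CS2 1 h replicate 2, 10 without CS2 0 h replicate 2 and 38 without CS2 1 h replicate 1.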

How the data were processed

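RNA of CS2, CS3 and WT leaves was sequenced as single-end 75 bp reads from strand-specific libraries. The authors trimmed the reads (Trimmomatic 0.38), mapped them on the M82 genome, dropped alignments of mapping quality under 30 and PCR duplicates, and deposited whole-number counts per gene, without normalization, from featureCounts 2.0.0. Counting was by strand and admitted reads with several alignments or on overlapping genes. The methods name STAR, and the table's header and the submitters' processing notes name Bowtie2 (2.3.5). The methods state fewer biological replicates than the 3 columns per condition that the table holds, and p-values measure only the spread between these libraries, which may be technical.

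All 18 libraries were fitted together with edgeR 4.0.16 (quasi-likelihood, TMM, 6 conditions without covariates, R 4.3.3, limma 3.58.1), with Benjamini-Hochberg adjustment over 15312 genes and a threshold of 0.05. Contrasts were 1 h against 0 h in each line and the interactions of CS2 with WT and with CS3. CPM used TMM-adjusted library sizes. DESeq2 1.42.0 was an alternative, and the others changed the scaling, the filter, the fold minimum, the samples fitted, the replicate block and the libraries included. Leaving out genes near the count limit was chosen after seeing the data. On simulated counts for 15312 genes, the CS2 comparison called 93 of 100 genes changed 2-fold and 100 of 100 changed 4-fold. The changed genes were drawn from those with higher counts, all genes had the same dispersion of 0.0223, and only the 6 CS2 libraries were fitted. These rates are therefore not those of the fit of 18 libraries or of genes with few counts. With a common dispersion of 0.0223 and 1713285 to 3669618 counts per library, small changes of genes with few counts are not detectable. A permutation of 3 against 3 libraries cannot give a p below 0.1, so none is printed. Floors of 3 counts cover counting error only.

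Symbols come from RefSeq (SLM_r2.1), matched by the order of neighbouring genes within 100000 bases with a tolerance of 200 bases, or by locus tag for the organelles. Of the tested genes 737 had a symbol. The members, gene lists and rules were chosen with earlier results of these data known. Named genes are those the study names, the 12 largest rises and falls and the 6 highest and lowest differences from WT that are called, reach a mean of 20 CPM and do not overlap, and up to 4 genes per list with the largest change. Of genes without a symbol, 2 that rose and 2 that fell are printed. After values were seen, the same rule was applied to genes with a symbol, and the genes differing from CS3 were added. Members of these sets that the text leaves out are counted only. The values of 1 gene that the rule names are not reported here.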

Additional observations from a re-analysis of the deposited data

Results flagged for a closer look

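The following differences passed a test of the difference itself between lines (interaction term, edgeR's quasi-likelihood test, adjusted p under 0.05). The CS2 response differed from that of WT in 3026 genes and from that of CS3 in 16 genes. Relative to WT, the log2 fold change differed by −2.92 for FLACCA, −2.34 for det2, −2.09 for HSTF24, −2.01 for ERABP1, −1.89 for ftsH6, −1.65 for nhx4, −1.62 for ORRM4, −1.17 for HSP100/CLPB and −0.91 for FKBP42. Higher values in CS2 were 5.66 for Solyc01g098530.3, 2.35 for FZY6, 1.91 for ERF-B13, 1.90 for IAA2, 1.82 for DDTFR8, 1.78 for ABCC3, 1.72 for TCP20, 1.63 for krp1, 1.53 for MTSHP, 1.42 for hsc70.3, 1.03 for APX1 and 0.73 for HSFA1A. Relative to CS3 it was higher in CS2 by 2.32 for Solyc03g083420.4 and by 1.01 for Solyc04g014370.4, and differed by −1.93 for DDTFR10A. Of these genes det2, ftsH6, HSP100/CLPB, hsc70.3, MTSHP and DDTFR8 were near the count limit, and the calls of hsc70.3, MTSHP, ERF-B13, HSFA1A and DDTFR10A were lost without single libraries. CS2, CS3 and WT each have 1 set of 0 h libraries, and comparisons with WT and with CS3 share those of CS2.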

How the results depend on the processing

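The replicate numbers did not pair the libraries (correlations of their deviations 0.0987, 0.118 and −0.0878), and with the replicate block 8098 genes were called in CS2, 4129 higher and 3969 lower. With a minimum log2 fold change of 1 the calls were 3005 in CS2 (1407 higher and 1598 lower), 3130 in CS3, 3226 in WT and 1627 for CS2 against WT. Without single libraries the calls lay between 7155 and 7935 in CS2 (higher 3486 to 4152, lower 3272 to 3783), 6901 and 8331 in CS3, 6335 and 7056 in WT and 2176 and 3005 for CS2 against WT. The 16 genes that differed from CS3 became 36 without a filter, 7 when only the CS2 and CS3 libraries were fitted and 57 with DESeq2, and 7 to 38 without single libraries: 38 without CS2 1 h replicate 1, 10 without CS2 0 h replicate 2, 8 without CS2 1 h replicate 2 and 7 without CS2 1 h replicate 3. The cause was not tested. Scaling by the upper quartile gave 3659 higher and 4828 lower genes in CS2 and moved the median of all genes by −0.11. DESeq2 gave 4268 and 3910, and leaving out the genes near the count limit 3858 and 3798. Over the genes called in both WT and CS3 the slopes were 0.78, 0.674 and 0.628 in CS2, and 0.783, 0.82 and 0.824 in CS3. That set was chosen by the values of WT and of CS3, which favours these plants over CS2. Over genes changed by at least 2 in WT they were 0.664, 0.547 and 0.52 in the CS2 libraries, while CS3 libraries had 0.651, 0.693 and 0.698. The slopes of the WT libraries were taken on the CS3 log2 fold changes, a different measure, and were 0.797, 0.786 and 0.716, or 0.904, 0.895 and 0.83 over genes called in both and 0.779, 0.763 and 0.711 over genes changed by at least 2 in CS3. Other windows and tolerances gave 0, 49 or 169 symbols in place of 962. For the 196 named genes, 2826 of 2891 alternative values of the CS2 response kept their call, 57 lost it, 8 gained it and 0 reversed. For CS2 against WT 118 of 1458 and for CS2 against CS3 76 of 335 lost it. Depth limits genes with few counts, most of all in CS2 1 h replicate 1 with 1713285 counts. The count limit may understate the rise of a gene abundant only at 1 h. It may overstate the rise of a gene abundant at both times, as 1 h replicates 1 and 2 held fewer counts than the 0 h libraries. Neither was tested.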

Other observations

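The CS2 libraries of each time were not equal in their heat genes. Over the 457 genes that rose by at least 2 on the log2 scale in WT, replicate 1 was the highest CS2 1 h library in 378, replicate 2 in 28 and replicate 3 in 51. Replicate 1 was also the highest CS2 0 h library, in 240 of these genes, against 113 for replicate 2 and 104 for replicate 3. The median level of these genes, on the log2(CPM + 1) scale, was 6.01, 5.42 and 5.41 in the CS2 1 h libraries, against 3.697, 3.33 and 3.29 in the CS2 0 h libraries. In the unheated plants, replicate 1 held the highest level of HSFA2 (3.64 CPM, against 2.66 and 1.13 CPM), hsc70.3 (14.6 CPM, against 6.39 and 3.10 CPM), FKBP65 (4.16 CPM, against 2.93 and 1.13 CPM) and HSTF24 (23.4 CPM, against 9.31 and 11.3 CPM). It was not the highest for HSP100/CLPB, MTSHP, FKBP62a, ER24 or HSFA1A. No label says whether replicate 1 of 1 h and replicate 1 of 0 h shared plants or handling, and the cause of these levels was not tested.

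Genes that rose and fell differed in the span the table gives for them, introns included. The median span was 3367 bases for the genes higher in CS2 1 h libraries, 5120 bases for those lower and 4220 bases over all tested genes. By chromosome, the share of genes called higher lay between 24.7% on chromosome 11 and 32.3% on chromosome 6, and the share called lower between 21.7% on chromosome 6 and 30.5% on chromosome 11.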
